A study of Mus musculus with 21 samples.

Results

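The granulosa cells of young mice were compared with the oocytes they surround, using the 4 libraries of young animals among the 21 libraries of the study. These were the 1 library labelled as young granulosa cells and the 3 labelled as young oocytes. They were picked by their labels, with earlier results of these data known. With a single granulosa library the comparison has no replicate check on that side, so no test was run, and the oocyte libraries are shown one by one. All mice were female ICR mice, and the young ones were 6 to 8 weeks old and had received no cells. Ovaries were scraped with a needle, granulosa cells were freed from cumulus-oocyte complexes with hyaluronidase, and oocytes, described as MII oocytes, were stripped of the zona pellucida with pronase. The other libraries came from mice aged 18 months, untreated or 3 weeks after human umbilical cord mesenchymal stem cells (unsorted, LRP1high or LRP1low) were placed under the ovarian capsule. Of these, the 3 granulosa cell and 3 oocyte libraries of the Aged + LRP1high group serve below as a second look at the order of both cell types. How many cells or mice went into a library is not given in the sources used here, and an RNA level in such a pool cannot tell fewer cells of a type from less RNA per cell.

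Granulosa cells are the somatic cells of the follicle. Under follicle-stimulating hormone (FSH) they make inhibins, activins and estradiol, and through gap junctions they pass small molecules to the oocyte. The oocyte in turn builds the zona pellucida, secretes GDF9 and BMP15, growth factors of the TGF-beta family that act on the granulosa cells around it, and stores the proteins and mRNAs on which the embryo will live before its own genome is active. The same traffic runs the other way through KIT ligand and C-type natriuretic peptide, which granulosa cells make and which bears on oocyte growth and on meiotic arrest.

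Expression is given as FPKM, the fragments of a gene scaled to its length and to the fragments of the library. Values are listed for the granulosa library first and then for the oocyte libraries in the order 1, 2 and 3. A difference is the granulosa value minus the mean of the oocyte values on the log2(FPKM + 1) scale, where changes between low values come out smaller than they are, and its SD is that of the 3 oocyte libraries. A gene was called higher or lower in granulosa cells where the difference reached 2 (a 4-fold change) and the granulosa value lay outside the range of all oocyte libraries. Only genes that averaged 1 FPKM or more in the 4 libraries were kept, and a gene could pass through a high value in either cell type alone.

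The library labelled oocyte 1 went against its label. Zp2 was listed at 0 in it, Bmp15 at 0.458 FPKM and Zp3 at 0.803 FPKM, and each of the 11 oocyte markers in the marker plot was lower in it than in both other oocyte libraries. Instead, 88.3% of its summed FPKM came from Gm10800 and 9 further predicted genes that share sequence with it, against 7.84% in granulosa cells, 1.13% in oocyte 2 and 0.000941% in oocyte 3. Only 4.99% came from other nuclear protein-coding genes, against 54.4% in granulosa cells, 93.1% in oocyte 2 and 89.4% in oocyte 3. The counts of calls below are therefore also given without this library. Oocyte 2 was above the granulosa library for all 11 of these markers, though not for every oocyte gene named below, and it listed 6560 genes above 0, against 18453 in oocyte 3 and 20851 in granulosa cells, and 41.0% of its FPKM lay in 10 genes. It also listed 4 of 12 proteins that every cell uses at 0, so a 0 in it is reported only as a listing. The depth, computed from the deposited coverage, was 0.694 aligned gigabases in granulosa cells and 1.35, 3.02 and 3.40 in the oocyte libraries. Across the 15506 genes kept, Spearman's rho between libraries, whose points share the library and its normalization, was 0.525 for oocytes 2 and 3, 0.444 and 0.329 for granulosa cells with oocytes 3 and 2, and -0.213 for granulosa cells with the library labelled oocyte 1.

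**Figure D1:**
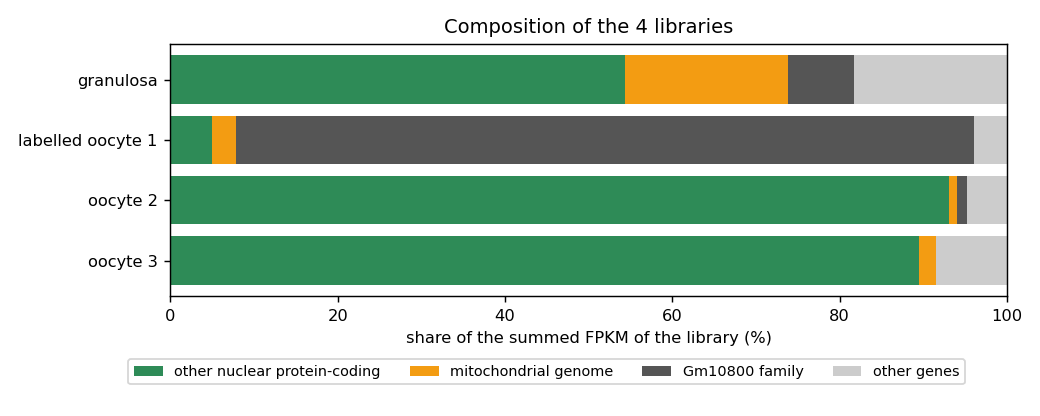
Share of the summed FPKM (horizontal axis, %) in each of the 4 libraries of young mice, split into the Gm10800 family, the mitochondrial genome, other nuclear protein-coding genes and the rest. The library labelled oocyte 1 holds 88.3% Gm10800 family, and the granulosa library has the largest mitochondrial share of the 4, 19.5%.

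Most granulosa cell markers were higher in the granulosa library than in every oocyte library. Amh was an exception, listed at 0 in it, and the library also held markers of other ovarian cell types, as given below. Foxl2, the transcription factor that maintains the granulosa cell fate (chr9:98955288-98958543 in GRCm38, plus strand), stood at 77.5 FPKM in granulosa cells and at 8.06, 0.759 and 1.03 FPKM in the oocyte libraries, a difference of 4.62 (SD 1.31, n = 3). The receptor of FSH, Fshr (chr17:88984952-89200675, minus strand), was at 23.2 FPKM and was listed at 0, 0 and 0.383 FPKM in the oocyte libraries. Inha, the alpha subunit of inhibin, reached 703 FPKM against 6.02, 21.2 and 16.6 FPKM, a difference of 5.65 (SD 0.88). Aromatase, Cyp19a1, which makes estradiol, was lower than these, at 15.5 FPKM against 0.807, 4.16 and 1.38 FPKM, and its difference of 2.56 was close to the 4-fold limit. For all 4 of these genes the granulosa value lay above every oocyte library.

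In the other direction, Zp3, which encodes a zona pellucida protein (chr5:135980099-135988624, plus strand), was at 2.82 FPKM in granulosa cells and at 0.803, 174 and 679 FPKM in the oocyte libraries. Zp1 was listed at 0 in granulosa cells against 1.37, 65.2 and 205 FPKM. Zp2 was at 4.60 FPKM against 0, 52.1 and 541 FPKM. Oocytes 2 and 3 were far above granulosa cells for all 3 zona genes, and the library labelled oocyte 1 was below granulosa cells for Zp2 and Zp3, which kept these out of the calls with all 3 libraries. Without it, the differences were -6.87 for Zp1, -4.92 for Zp2 and -6.50 for Zp3.

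**Figure D2:**
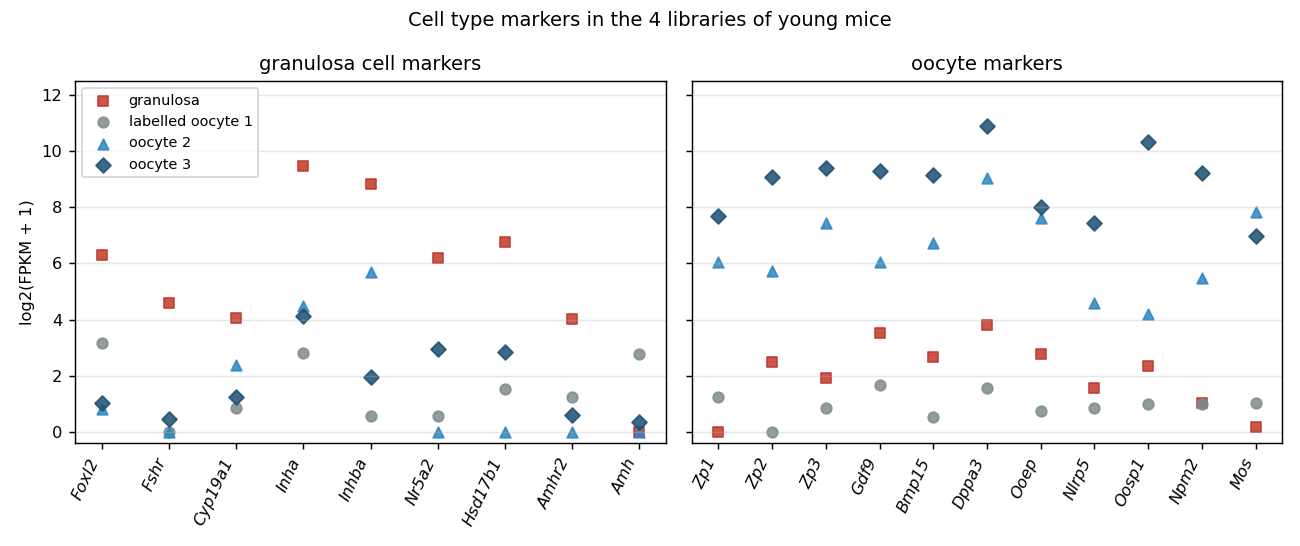
Level of 9 granulosa cell markers (left) and 11 oocyte markers (right), as log2(FPKM + 1) on the vertical axis, with a symbol for each of the 4 libraries of young mice. The granulosa library is highest for every granulosa marker except Amh, and oocytes 2 and 3 are highest for every oocyte marker, while the library labelled oocyte 1 lies low in both panels.

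Promoter windows of 2 genes of each kind are shown, as examples of oocyte and granulosa genes present in the promoter table. Each window holds 250 bases before and 50 after a RefSeq start in GRCm38.p6, written 5′ to 3′ on the strand of the gene. Capitals mark CANNTG, the E-box bound by basic helix-loop-helix factors, a class that includes Figla, the oocyte factor known to act on zona genes. The oocyte genes are Zp3 (chr5:135979855-135980154, plus strand, 4 matches) and Oosp1, an oocyte-secreted protein (chr19:11691002-11691301, minus strand, 5 matches). The granulosa genes are Fshr (chr17:89200626-89200925, minus strand, 3 matches) and Inha (chr1:75507359-75507658, plus strand, 1 match). The whole Inha window lies inside the gene as the files' annotation gives it (chr1:75507077-75510366). It holds transcribed sequence and none of the stretch before that earlier start, so its match count cannot be set beside the others.
Zp3: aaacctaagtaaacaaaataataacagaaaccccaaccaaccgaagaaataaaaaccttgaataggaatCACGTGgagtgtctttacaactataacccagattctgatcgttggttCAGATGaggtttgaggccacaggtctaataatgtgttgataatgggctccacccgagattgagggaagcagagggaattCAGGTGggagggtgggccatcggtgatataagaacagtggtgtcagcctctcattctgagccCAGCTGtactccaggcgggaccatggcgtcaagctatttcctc
Oosp1: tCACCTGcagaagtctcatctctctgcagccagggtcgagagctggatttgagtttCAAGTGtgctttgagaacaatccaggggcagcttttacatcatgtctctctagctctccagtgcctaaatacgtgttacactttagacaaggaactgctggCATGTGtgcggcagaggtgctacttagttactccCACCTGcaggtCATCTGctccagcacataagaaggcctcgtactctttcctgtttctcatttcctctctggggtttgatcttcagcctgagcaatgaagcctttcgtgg
Fshr: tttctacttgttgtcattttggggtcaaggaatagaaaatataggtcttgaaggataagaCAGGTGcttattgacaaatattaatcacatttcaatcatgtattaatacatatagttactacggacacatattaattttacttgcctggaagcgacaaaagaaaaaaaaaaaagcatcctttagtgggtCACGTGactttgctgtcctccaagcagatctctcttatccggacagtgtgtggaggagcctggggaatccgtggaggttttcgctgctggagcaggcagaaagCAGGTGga
Inha: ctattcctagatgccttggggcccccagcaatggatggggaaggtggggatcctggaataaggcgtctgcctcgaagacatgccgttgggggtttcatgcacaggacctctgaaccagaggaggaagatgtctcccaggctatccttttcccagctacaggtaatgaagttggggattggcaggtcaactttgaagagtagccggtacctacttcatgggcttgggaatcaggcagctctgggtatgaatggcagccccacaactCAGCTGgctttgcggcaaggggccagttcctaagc
An E-box match occurred in 72.1% of all 27025 promoters of the same length, on either strand, so that its presence alone does not set these windows apart. Of the genes called higher and lower in granulosa cells, 2672 of 3904 and 228 of 328 had a promoter in the table, under the 80% needed, and a comparison of motif shares between them would therefore be void. Figla itself was at 2.74 FPKM in granulosa cells and at 0.914, 2.30 and 18.7 FPKM in the oocyte libraries.

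Of 15506 genes kept, 3904 were called higher in granulosa cells, or 25.2%, and 328 were called lower, or 2.12%. Without the library labelled oocyte 1, 4370 of 12038 genes were higher (36.3%) and 779 were lower (6.47%). Of the genes called, 3656 higher and 317 lower ones were called in both settings. Of the 3904 higher genes, 2643 were listed at 0 in oocyte 2, as were 3177 of the 4370. Of the 328 lower genes, 157 were listed at 0 in granulosa cells, as were 215 of the 779. Leaving out oocyte 2 gave 3105 higher and 1107 lower genes, and leaving out oocyte 3 gave 5313 and 224. The median difference of all genes kept was 0.63, and 1.29 without the library labelled oocyte 1. It was 0.58 with TPM and -0.20 after quantile normalization. With protein-coding genes scaled to the same sum in each library it was 1.11, and with the nuclear ones outside the Gm10800 family scaled in this way it was -0.86. The counts of the gene lists below stand beside these shares of all genes.

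Among protein-coding genes, the largest differences towards granulosa cells belonged to Cyp11a1, Rpl9, Tceal9, Mgarp and Mgst1. Cyp11a1, which cleaves the side chain of cholesterol in the first step of steroid synthesis, was at 632 FPKM in granulosa cells and at 1.45, 0 and 0 FPKM in the oocyte libraries. Mgarp, a mitochondrial protein of steroid-making tissues, was at 449 FPKM against 0.674, 0 and 0 FPKM. Mgst1, a microsomal glutathione transferase, was at 671 FPKM against 0.724, 0 and 2.95 FPKM. For these genes every oocyte library was at or under 2.95 FPKM. Rpl9, a ribosomal protein gene, was at 2759 FPKM against 1.85, 0 and 75.5 FPKM. Others among the 15 were Plau, the urokinase-type plasminogen activator, at 583 FPKM against 0, 0 and 5.53 FPKM, and Tmsb4x, which binds actin monomers, at 228 FPKM against 0.323, 0 and 0.226 FPKM. Fos, an immediate early transcription factor, was at 359 FPKM against 1.49, 0 and 0.495 FPKM. Akr1cl, Rps23, Ndufa5, Cox7c, Hsd3b1, Nap1l5 and Fdx1 made up the rest.

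Towards oocytes, H1foo, the linker histone of the oocyte, had the largest difference. It was listed at 0 in granulosa cells and stood at 2.18, 113 and 3437 FPKM in the oocyte libraries, a difference of -6.75 (SD 5.04, n = 3). Gtsf1, which acts in the piRNA pathway, was likewise listed at 0 against 0.223, 70.6 and 1004 FPKM. Sall4, a zinc finger transcription factor of germ and stem cells, was at 0.805 FPKM against 6.54, 102 and 1194 FPKM. Kdm6b, a demethylase of histone H3, was at 1.98 FPKM against 7.24, 429 and 1096 FPKM, and Sirt6, a deacetylase, at 0.641 FPKM against 4.91, 356 and 318 FPKM. Upf1, a helicase of nonsense-mediated mRNA decay, was at 0.845 FPKM against 6.52, 335 and 915 FPKM. All 3 oocyte libraries lay above granulosa cells for each of these genes, as the rule for a call asks, and oocytes 2 and 3 were much further from the granulosa library than the library labelled oocyte 1 was. The rest of the 15 were Tmem181a, Fbxw15, Elobl, Lsm14b, Musk, Fbxw28, Abcg1, Mos and Cenps.

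The granulosa identity list held 20 genes, all kept, and 16 of them were called higher in granulosa cells and none lower, with a median difference of 4.46. Without the library labelled oocyte 1, 15 were higher and none lower. The genes for the activin and inhibin beta subunits followed Inha, with Inhba at 450 FPKM against 0.470, 50.5 and 2.86 FPKM and Inhbb at 528 FPKM against 5.78, 18.3 and 7.81 FPKM. Fst, which encodes follistatin, the binding protein that restrains activin, was at 349 FPKM against 9.33, 0 and 10.8 FPKM. Nr5a2, a nuclear receptor that granulosa cells need for ovulation, was at 72.3 FPKM against 0.485, 0 and 6.83 FPKM. Hsd17b1, which turns estrone into estradiol, was at 108 FPKM against 1.88, 0 and 6.13 FPKM. Serpine2, a protease inhibitor made by cumulus and granulosa cells, was at 551 FPKM against 7.25, 2.60 and 57.9 FPKM.

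The members not called were Amh, Esr2, Gata4 and Nr5a1. Amh, the anti-Müllerian hormone of small growing follicles, was listed at 0 in granulosa cells and at 5.82, 0 and 0.288 FPKM in the oocyte libraries, while the gene of its receptor, Amhr2, was at 15.1 FPKM against 1.37, 0 and 0.521 FPKM. Esr2, an estrogen receptor, was at 14.9 FPKM in granulosa cells and at 17.7 FPKM in oocyte 3. Nr5a1 was at 0.734 FPKM against 5.2, 0 and 0.439 FPKM, well under its relative Nr5a2. Gata4, a zinc finger transcription factor, was at 3.87 FPKM against 3.57, 0 and 1.02 FPKM. Slc18a2, a monoamine carrier, was called only with all 3 oocyte libraries, at 23.7 FPKM against 0.508, 4.79 and 19.1 FPKM.

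Genes of steroid synthesis lay on the granulosa side. Of 11 listed, 9 were called higher in granulosa cells in both settings, and the other 2 did not pass the filter on low values. Several of the 9, such as Cyp17a1 and Star, passed it only through their granulosa value, so the count over the genes kept is no support of its own. The median difference over all 11 was 3.59. Beside Cyp11a1, high levels were those of its electron donor Fdx1, at 687 FPKM against 3.28, 0 and 12.3 FPKM, and of Hsd3b1, which makes progesterone from pregnenolone, at 322 FPKM against 0.562, 0 and 1.67 FPKM. Lhcgr, the receptor for luteinizing hormone, was at 42.2 FPKM against 0.368, 0 and 0.583 FPKM. Star, which brings cholesterol into mitochondria, was much lower, at 13.4 FPKM against 0.660, 0 and 0.0278 FPKM. Cyp17a1, which in the follicle is known from theca cells, was at 6.85 FPKM against 1.22, 0 and 0 FPKM. The members that were not kept were Akr1c18, which inactivates progesterone in the late corpus luteum, at 1.23 FPKM and listed at 0 in every oocyte library, and Srd5a1, listed at 0 in granulosa cells.

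**Figure D3:**
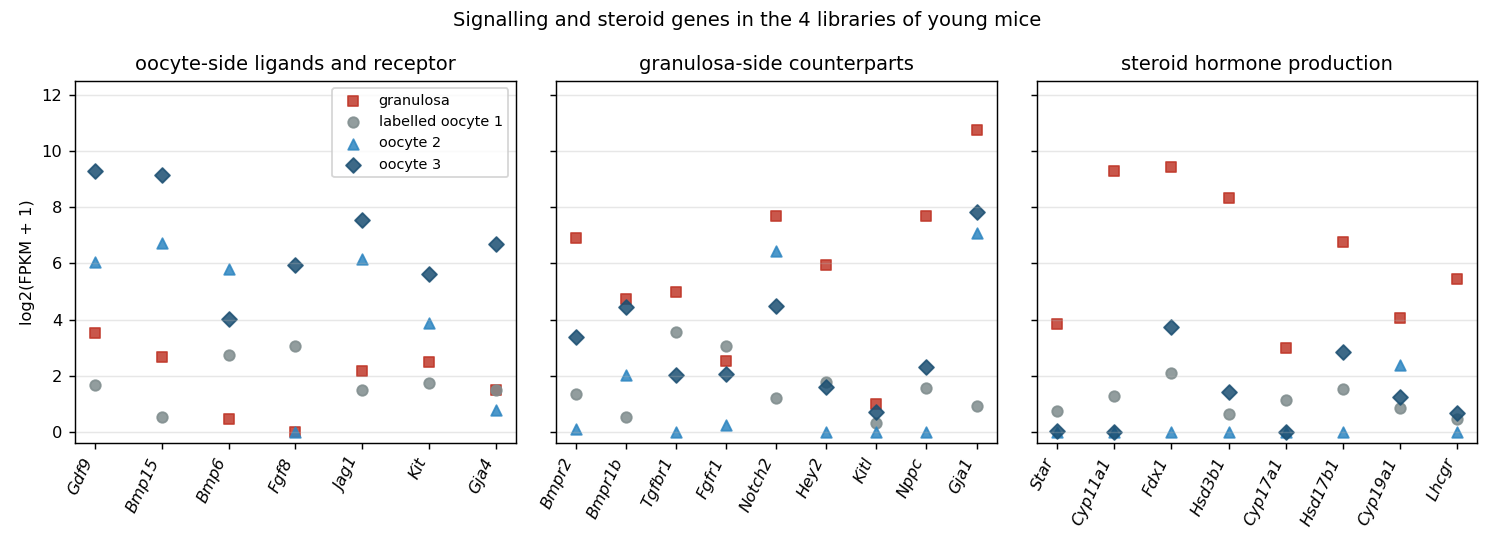
Levels of oocyte-side signals, their granulosa-side counterparts and steroid genes, as log2(FPKM + 1) on the vertical axis, with a symbol for each of the 4 libraries of young mice. The granulosa library is above the others for all 8 steroid genes, and on the oocyte side oocytes 2 and 3 are above it for Gdf9, Bmp15, Bmp6, Jag1 and Kit.

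The signals that pass between both cell types were divided between them. On the oocyte side, 10 ligands, receptors and related genes were listed, and none was called higher in granulosa cells. Only Bmp6 was called lower with all 3 libraries, at 0.391 FPKM in granulosa cells against 5.73, 54.9 and 15.2 FPKM. Without the library labelled oocyte 1, 5 were lower, namely Bmp6, Gdf9, Bmp15, Jag1 and Kit, and the median difference moved from -2.30 to -2.97. Gdf9 (chr11:53431023-53437904, plus strand) was at 10.5 FPKM against 2.17, 65.1 and 626 FPKM, and Bmp15 (chrX:6314107-6320721, minus strand) at 5.32 FPKM against 0.458, 105 and 563 FPKM. Both were thus detected in the granulosa library, at a small part of the level in oocytes 2 and 3. Jag1, a Notch ligand, was at 3.46 FPKM against 1.78, 70.1 and 187 FPKM, and Kit, the receptor of KIT ligand, at 4.55 FPKM against 2.36, 13.6 and 48.6 FPKM.

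Oocytes 2 and 3 differed from each other for several of these genes. Fgf8, a growth factor that acts on cumulus cells, was listed at 0 in granulosa cells and at 7.26, 0 and 60.0 FPKM in the oocyte libraries. Gpr3, the receptor that keeps cyclic AMP high in arrested oocytes, was also listed at 0 in granulosa cells and at 4.72, 0 and 19.8 FPKM in the oocyte libraries. Gja4, the connexin of the oocyte side of the gap junction, was at 1.79 FPKM in granulosa cells and at 1.79, 0.709 and 102 FPKM in the oocyte libraries. Pde3a, which breaks down cyclic AMP in the oocyte, was at 0.669 FPKM in granulosa cells and at 0.658, 0.0948 and 12.8 FPKM in the oocyte libraries. Oocyte 3 was the highest library for each of these genes, and oocyte 2 was not above the granulosa library for any of them.

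On the granulosa side, 18 receptors, ligands and targets were listed, 16 were kept and 11 were called higher in granulosa cells, with none lower and a median difference of 2.69. Without the library labelled oocyte 1, 10 were higher and none lower. Bmpr2, the type 2 receptor for GDF9 and BMP15, was at 119 FPKM against 1.57, 0.0863 and 9.48 FPKM. Its partner for GDF9, Tgfbr1, was at 30.9 FPKM against 10.9, 0 and 3.06 FPKM. Its partner for BMP15, Bmpr1b, was at 25.3 FPKM against 0.432, 3.11 and 20.6 FPKM, so that granulosa cells and oocyte 3 were close, and it was not called without the library labelled oocyte 1.

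The Notch receptor Notch2 was at 207 FPKM in granulosa cells against 1.3, 85.7 and 21.6 FPKM, and the Notch target Hey2 at 60.3 FPKM against 2.40, 0 and 2.01 FPKM. Hes1, another target, was at 36.3 FPKM against 14.7, 0 and 0.290 FPKM. Nppc, which encodes C-type natriuretic peptide, was at 208 FPKM against 1.93, 0 and 4.0 FPKM, while the gene of its receptor, Npr2, was at 3.30 FPKM against 5.07, 0 and 0.662 FPKM. The connexin gene of granulosa cells, Gja1, had the highest level of the list, at 1744 FPKM, but it was also detected at 135 and 228 FPKM in oocytes 2 and 3 and at 0.892 FPKM in the library labelled oocyte 1. Kitl, the KIT ligand, was not kept, with 1.01 FPKM in granulosa cells against 0.239, 0 and 0.643 FPKM. Fgfr1, Fgfr2, Bmpr1a, Acvr2b and Npr2 were kept without a call, and Notch3 was not kept.

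Genes of cumulus expansion, the matrix response to the ovulatory surge, were low. Of 17 listed, 7 were kept and 4 were called higher in granulosa cells, namely Vcan, Adamts1, Runx1 and Cebpb, and Ptx3, at 4.39 FPKM against 10.3, 0 and 0 FPKM, joined them without the library labelled oocyte 1. Vcan and Adamts1, and Ptx3 in that setting, passed the filter on low values only through their granulosa value. The count over the genes kept is therefore no support of its own. The median difference over all 17 was 0.69. Vcan, a matrix proteoglycan, was at 19.0 FPKM against 0.802, 0 and 1.58 FPKM, and Cebpb, a transcription factor downstream of luteinizing hormone, at 131 FPKM against 9.15, 1.13 and 10.1 FPKM. Other genes known from the expanding cumulus were near 0. In granulosa cells Has2, which makes hyaluronan, was listed at 0, Ptgs2 was at 0.469 FPKM and Tnfaip6 at 1.00 FPKM. Areg and Il6 were listed at 0 and Ereg was at 0.105 FPKM.

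Metabolic genes were less one-sided. For cholesterol synthesis and uptake, 9 of 22 listed genes were higher in granulosa cells and none lower with all oocyte libraries, and 8 were higher and 3 lower without the library labelled oocyte 1. Hsd17b7, a late enzyme of the pathway, was at 139 FPKM against 0.171, 0 and 6.64 FPKM. Sqle, which forms squalene epoxide, was at 41.3 FPKM against 4.16, 0 and 3.68 FPKM. The lower genes included Fdft1, squalene synthase, at 11.6 FPKM against 0.521, 36.4 and 92.4 FPKM. They also included Insig1, the sterol-regulated anchor of SREBP processing, at 1424 FPKM against 43.5, 46186 and 5643 FPKM. The pathway thus did not lie on one side, since Idi1 and Fdps, which act before Fdft1, were called higher in granulosa cells.

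For glycolysis, 7 of 20 listed genes were higher in granulosa cells and none lower, and without the library labelled oocyte 1 there were 7 higher and 1 lower. The median difference of 0.88 was near that of all genes, and it was -0.28 where nuclear protein-coding genes other than the Gm10800 family were set to an equal sum. Pgam1, a glycolytic mutase, was at 53.8 FPKM against 2.02, 0 and 4.35 FPKM, and Slc16a1, a carrier of lactate and pyruvate, at 59.2 FPKM against 1.39, 6.58 and 9.21 FPKM. The lower gene was Ldhb, a lactate dehydrogenase subunit, at 92.0 FPKM against 0.593, 371 and 1071 FPKM. The other subunit, Ldha, was at 66.4 FPKM against 2.88, 79.1 and 3.86 FPKM and was not called. Hence the 2 oocyte libraries that held oocyte markers were both above granulosa cells for Ldhb, and only oocyte 2 was for Ldha.

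Of 13 amino acid transporters, 8 were kept and 4 were higher in granulosa cells, with none lower. Without the library labelled oocyte 1, 7 were kept and again 4 were higher and none lower. These 4 passed the filter only through their granulosa value, so the count over the genes kept is no support of its own. Slc38a2 was the highest, at 114 FPKM against 2.88, 0 and 0.732 FPKM, and Slc38a3, which granulosa cells are known to use to take up amino acids for the oocyte, was at 11.0 FPKM against 2.19, 0 and 0.486 FPKM. Slc6a9, the glycine carrier by which the oocyte regulates its volume, was listed at 0 in granulosa cells and stood at 4.45, 0 and 13.8 FPKM in the oocyte libraries.

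Of 17 matrix and integrin genes, 5 were higher in granulosa cells with all oocyte libraries, and 7 higher and 1 lower without the library labelled oocyte 1. Itgav, an integrin subunit, was at 93.8 FPKM against 4.73, 0 and 2.64 FPKM, Sparc, a matricellular protein, at 58.3 FPKM against 1.23, 0 and 1.49 FPKM, and Col4a1, a collagen of basement membranes, at 9.66 FPKM against 0.639, 0 and 0.215 FPKM. The lower gene was Lamb1, a laminin chain, at 7.50 FPKM against 1.27, 56.5 and 73.3 FPKM. The other laminin chains and Col4a2 were not called.

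The insulin-like growth factor system was mostly higher in granulosa cells, with 8 of 14 listed genes and none lower, and 11 higher and 1 lower without the library labelled oocyte 1. Igf1, which acts with FSH on granulosa cells, was at 51.8 FPKM against 0.428, 0 and 5.96 FPKM, and its receptor gene Igf1r at 44.3 FPKM against 2.94, 0.0735 and 3.08 FPKM. Of the binding proteins, Igfbp7 was at 71.0 FPKM against 3.98, 0 and 10.2 FPKM and Igfbp5 at 26.2 FPKM against 0.874, 0 and 0.850 FPKM. The lower gene was Igf2r, the receptor that clears IGF2, at 22.5 FPKM against 2.71, 632 and 136 FPKM.

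Among 18 genes of cell cycle entry and DNA replication, 7 were higher and 2 lower in granulosa cells, and 7 and 3 without the library labelled oocyte 1. The median difference of 0.77 was near that of all genes, and quantile normalization turned it to -0.16. Ccnd2, the cyclin through which FSH drives granulosa cell division, was at 55.6 FPKM against 1.27, 0 and 8.73 FPKM, and Pcna, the replication clamp, at 481 FPKM against 3.66, 140 and 62.9 FPKM. Ccnd1, by contrast, was at 0.277 FPKM against 1.58, 13.3 and 17.2 FPKM, and E2f1 at 0.897 FPKM against 6.57, 34.1 and 8.46 FPKM. Of the cyclin D genes, Ccnd2 thus lay on the granulosa side and Ccnd1 on the oocyte side. Ccnd3, at 0.0680 FPKM against 5.02, 0 and 3.81 FPKM, was not called in either setting.

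**Figure D4:**
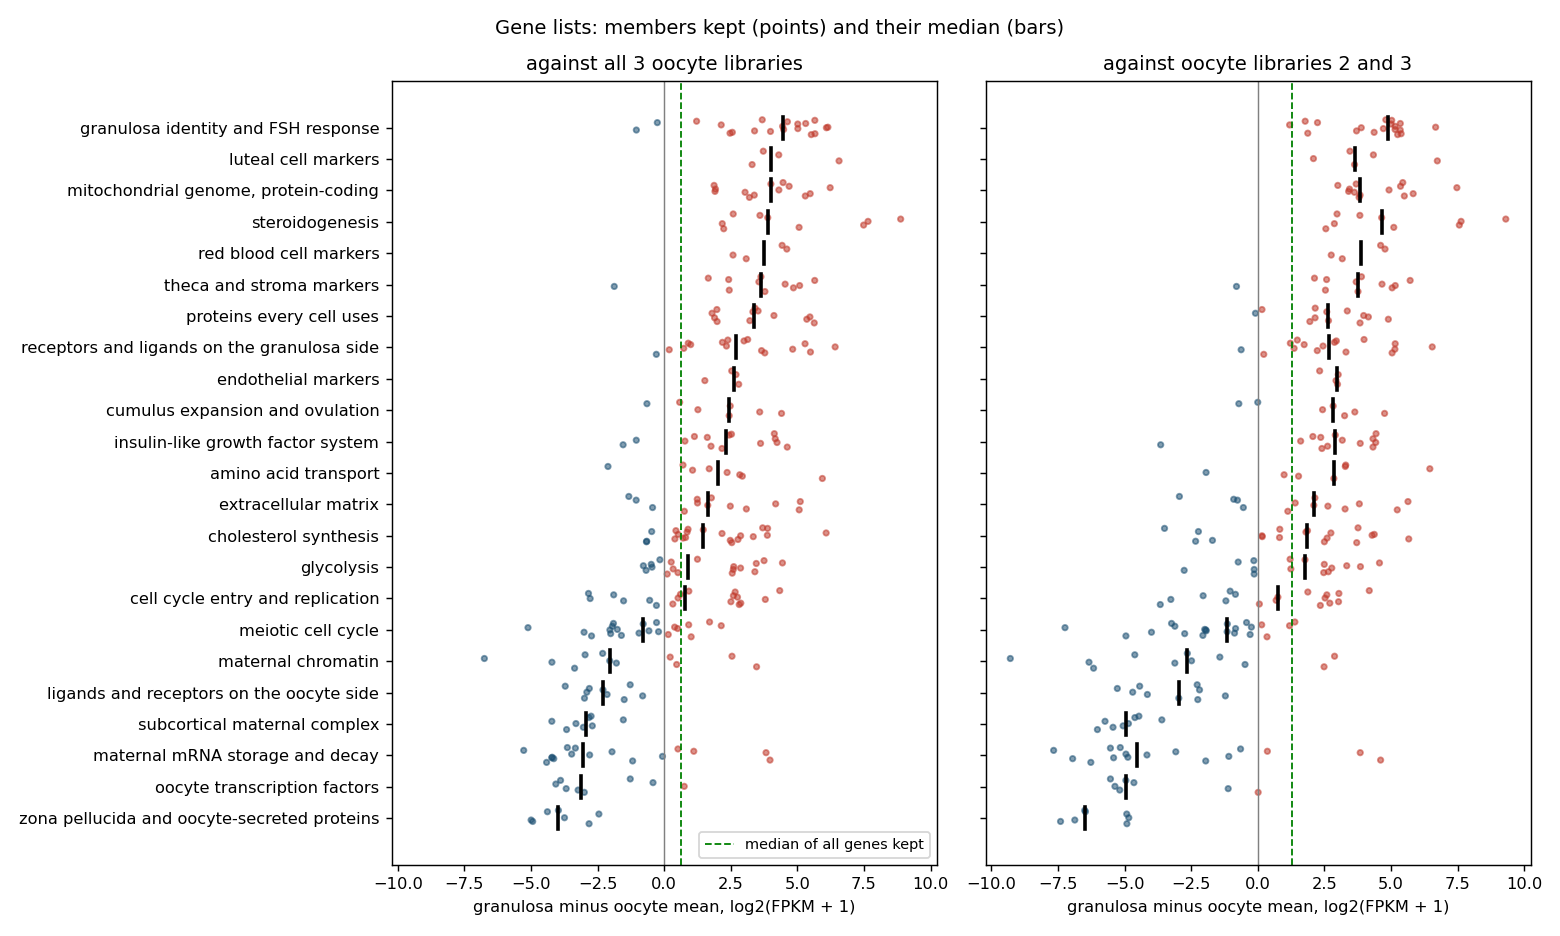
Difference of each kept gene (points) in 23 gene lists, granulosa minus oocyte mean on the log2(FPKM + 1) scale, against all 3 oocyte libraries (left) and against oocytes 2 and 3 (right), with bars at the list medians and a dashed line at the median of all genes kept. The 7 oocyte lists lie below 0 and the granulosa identity list has the highest median, 4.46, on the left, with ribosomal proteins and nuclear respiratory chain genes not drawn.

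The oocyte programs lay on the other side of 0, and there the library labelled oocyte 1 decided most calls. Of 7 zona and oocyte-secreted protein genes, none was higher in granulosa cells, 3 were lower with all oocyte libraries and all 7 without it, with medians of -3.97 and -6.47. Oosp1 was at 4.11 FPKM against 0.978, 17.3 and 1296 FPKM, and Oosp3 was listed at 0 against 0, 119 and 237 FPKM. Of the 8 genes of the subcortical maternal complex, a protein lattice beneath the oocyte membrane that cleaving embryos need, 2 were lower with all libraries and all 8 without that one, with medians of -2.93 and -4.96. Ooep was at 5.77 FPKM against 0.672, 196 and 257 FPKM, Nlrp5 at 1.92 FPKM against 0.805, 22.9 and 173 FPKM, and Zbed3 at 18.5 FPKM against 4.73, 411 and 1717 FPKM.

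Of 13 oocyte transcription factors, 8 were kept, 2 were lower in granulosa cells with all libraries and 5 without the library labelled oocyte 1. Nobox, a homeobox factor of the early oocyte, was at 0.608 FPKM against 0.580, 61.3 and 87.7 FPKM, and Lhx8 at 0.358 FPKM against 3.86, 32.7 and 71.0 FPKM. Taf4b, a subunit of a general transcription complex that the ovary uses, was not on the oocyte side, at 8.87 FPKM against 1.11, 9.39 and 8.22 FPKM. Sohlh1, Sohlh2, Tbpl2, Obox3 and Obox6 did not pass the filter on low values.

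Of 11 maternal chromatin genes, 3 were lower and 2 higher in granulosa cells, and 7 and 2 without the library labelled oocyte 1. Dppa3, which guards maternal DNA methylation in the zygote, was at 13.1 FPKM against 1.98, 530 and 1913 FPKM, and Npm2, a histone chaperone of the egg, at 1.03 FPKM against 0.992, 44.2 and 596 FPKM. Tet3, the dioxygenase that acts on the paternal genome, was at 4.48 FPKM against 11.2, 13.5 and 64.0 FPKM. The 2 higher genes were Hdac2, a histone deacetylase, at 129 FPKM against 2.02, 13.7 and 35.7 FPKM, and Prmt6, an arginine methyltransferase, at 7.76 FPKM against 1.39, 0.416 and 0 FPKM.

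Of 16 genes of mRNA storage and decay, 7 were lower and 2 higher, and 10 and 2 without the library labelled oocyte 1, with medians of -3.07 and -4.52. Btg4, the adaptor that starts the clearance of maternal mRNA, was at 12.6 FPKM against 3.94, 3097 and 913 FPKM, and Lsm14b, an RNA-binding protein of oocytes, at 6.62 FPKM against 9.71, 1939 and 1226 FPKM. Zar1, which organizes maternal mRNA stores, was at 0.715 FPKM against 5.11, 42.4 and 122 FPKM. The 2 higher genes were Ddx6, a helicase of RNA granules in many cell types, at 35.8 FPKM against 1.67, 0.0330 and 5.36 FPKM, and Zfp36l2, which promotes mRNA decay, at 44.9 FPKM against 6.08, 0 and 2.55 FPKM.

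The meiotic list was weaker. Of 23 genes, 3 were lower and 1 higher in granulosa cells, and 6 lower and none higher without the library labelled oocyte 1, and the median difference of -0.79 turned to 0.89 without oocyte 3. Mos, the kinase that holds the egg at metaphase II, was at 0.123 FPKM against 1.04, 226 and 125 FPKM, and Wee2, an oocyte kinase that restrains CDK1, at 0.969 FPKM against 3.05, 11.6 and 76.9 FPKM. Cdk1 itself, which dividing somatic cells share, was the gene called higher, at 29.4 FPKM against 0.848, 12.4 and 12.2 FPKM. Ccnb1, its cyclin partner, was at 4.66 FPKM against 0.720, 199 and 152 FPKM. Of this pair, the kinase was higher in the granulosa library and the cyclin in oocytes 2 and 3.

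Genes of mitochondria and ribosomes lay mostly on the granulosa side, as did the median of 12 proteins that every cell uses. Transcripts of the mitochondrial genome made up 19.5% of the FPKM of the granulosa library, against 2.80%, 0.979% and 2.12% in the oocyte libraries. Of its 13 protein-coding genes, 10 were higher in granulosa cells with all oocyte libraries and all 13 without the library labelled oocyte 1. mt-Co1, a subunit of cytochrome c oxidase, was at 8754 FPKM against 855, 70.8 and 636 FPKM, and mt-Nd4 at 2756 FPKM against 692, 161 and 241 FPKM. The 3 genes not called with all libraries, mt-Nd5, mt-Nd6 and mt-Nd4l, were higher in the library labelled oocyte 1 than in granulosa cells, as with mt-Nd5 at 419 FPKM against 898, 24.1 and 61.5 FPKM. Nuclear copies of mitochondrial genes share reads with them, so single values are uncertain.

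Nuclear genes of the respiratory chain and ATP synthase, with their assembly factors, went the same way. Of 107 listed, 65 were higher in granulosa cells and none lower, with a median difference of 3.38, and 57 were higher and 1 lower without the library labelled oocyte 1, with a median of 2.60. Cox7c, a subunit of cytochrome c oxidase, was at 3618 FPKM against 0.739, 6.58 and 428 FPKM, and Ndufa5, of complex I, at 999 FPKM against 0, 0 and 79.5 FPKM. Ndufa11, another subunit of complex I, was at 24.1 FPKM against 4.13, 3.78 and 182 FPKM, and oocyte 3 was above granulosa cells here. The gene that became lower was Ndufaf2, an assembly factor, at 12.1 FPKM against 1.39, 241 and 233 FPKM. Oocyte 2 listed 55 of the 107 genes at 0, against 7 in granulosa cells and 4 in oocyte 3.

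Of 81 cytosolic ribosomal protein genes, 76 were higher in granulosa cells and none lower, with a median difference of 5.07, and 71 were higher without the library labelled oocyte 1, with a median of 4.0. The median under the 4 other scalings was lowest after quantile normalization, at 3.71. Rps23 was at 2397 FPKM against 1.31, 3.19 and 71.3 FPKM, and Rps21 at 3193 FPKM against 2.16, 34.5 and 59.2 FPKM. Among those not called were Rps9 and Rpl35, with Rps9 at 484 FPKM against 2.07, 553 and 110 FPKM and Rpl35 at 238 FPKM against 1.93, 284 and 260 FPKM. Ribosomal protein genes have many processed pseudogenes, and how the counting divided reads among the copies is not given in the sources used here.

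Of the 12 proteins that every cell uses, 6 were also called higher in granulosa cells and none lower, with a median difference of 3.37, and 7 were higher and none lower without the library labelled oocyte 1, with a median of 2.62. Eef1a1, an elongation factor, was at 1782 FPKM against 1.99, 39.7 and 382 FPKM, while Actb was at 4048 FPKM against 84.6, 4851 and 3821 FPKM and was not called. With all oocyte libraries, the median difference of this list lay above those of the granulosa-side receptors and ligands, the insulin-like growth factor system, the endothelial, cumulus, matrix and cell cycle lists and the 3 metabolic lists. The nuclear respiratory chain genes had medians near those of this list, at 3.38, and 2.60 without the library labelled oocyte 1. What part the library composition and the zeros of oocyte 2 have in the higher lists was not tested.

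The granulosa library also held transcripts of genes used as markers of other ovarian cell types. They were compared only with oocytes, so whether granulosa cells themselves made them was not tested. All 5 luteal cell markers were above the oocyte libraries, and the 4 that were kept were called higher. Sfrp4 was at 109 FPKM against 0.482, 0 and 0.0624 FPKM, and Ptgfr, the receptor for the prostaglandin that ends the corpus luteum, at 19.2 FPKM against 0.0824, 0 and 0 FPKM. Of 11 theca and stroma markers, 9 were higher in granulosa cells, and 10 without the library labelled oocyte 1. Most genes called in both lists, such as Sfrp4, Dcn and Lum, passed the filter on low values only through their granulosa value. These counts are therefore no support of their own. Dcn, a small matrix proteoglycan, was at 62.6 FPKM against 0.393, 0 and 0.463 FPKM, Col1a2 at 36.3 FPKM against 0.681, 0.287 and 0 FPKM, and Lum at 34.7 FPKM against 0.170, 0 and 0 FPKM. The summed FPKM of the theca and stroma list was 217 in granulosa cells against 32.8, 0.292 and 9.99 in the oocyte libraries, and of the luteal list 180 against 2.82, 0 and 11.4. In the theca and stroma list Myh11 went the other way, at 0.747 FPKM in granulosa cells against 27.4, 0 and 8.26 FPKM. It made up most of the sum in oocyte 3 and in the library labelled oocyte 1.

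Blood and vessel markers were lower but present. Hba-a1, a globin gene of red blood cells, was at 26.4 FPKM against 0.431, 0 and 0 FPKM, and the red blood cell list summed to 63.5 FPKM against 2.38, 0 and 0.327 FPKM, with Alas2 listed at 0. Cdh5, a cadherin of endothelial cells, was at 7.69 FPKM against 1.10, 0 and 0.151 FPKM, and the endothelial list summed to 36.9 FPKM against 24.3, 0.192 and 8.34 FPKM. Granulosa cells were above all 3 oocyte libraries for 3 of 6 endothelial markers. The others were Egfl7, at 6.65 FPKM against 17.7, 0 and 0 FPKM, Tek, at 0.506 FPKM against 1.05, 0 and 1.81 FPKM, and Vwf, at 0.0470 FPKM against 2.79, 0 and 0 FPKM. Of 8 immune markers only Lyz2 was kept, at 18.2 FPKM against 0.143, 0 and 0 FPKM, and Cd68, Cd74 and Cd3e were listed at 0 in granulosa cells. With nuclear protein-coding genes outside the Gm10800 family set to an equal sum, the median of the immune list was -0.60. None of 6 markers of the ovarian surface epithelium was kept, and 4 were listed at 0. Globin genes have near-identical copies, so their single values are uncertain. Any part of these cell types in the steroid, matrix and insulin-like growth factor results was not tested.

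Receptors of the nose offered a check on background, since neither cell type is known for them. Of 328 vomeronasal receptor genes, 187 were listed at 0 in granulosa cells, 298 in oocyte 2 and 276 in oocyte 3, but only 16 in the library labelled oocyte 1. Of 1095 olfactory receptor genes, 733 were listed at 0 in granulosa cells and 76 in that library. Low values spread over many genes thus marked the library labelled oocyte 1 most and the granulosa library next.

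The order of both cell types was then looked up in the Aged + LRP1high group, whose 6 libraries share no sample with the young ones. Of the 13047 genes kept there, 258 were called higher in granulosa cells (1.98%) and 2234 lower (17.1%), by a 4-fold difference of the means and no overlap between the 3 libraries of each cell type. Of the 328 genes lower in young granulosa cells, 316 were kept and 205 were also lower in this group, which is 62.5% of the young list, 64.9% of those kept and 9.18% of the Aged + LRP1high list, and none was higher. Without the library labelled oocyte 1, 515 of 779 were lower (66.1%) and none higher. Of the 3904 genes higher in young granulosa cells, 2859 were kept in this group, 98 were also higher (2.51% of the young list, 3.43% of those kept, 38.0% of the other list) and 293 were lower. Without the library labelled oocyte 1, 145 of 4370 were also higher (3.32%) and 238 were lower. Without Aged + LRP1high granulosa library 2 the 98 became 368, and without oocyte library 1 of that group they became 172.

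The Aged + LRP1high granulosa libraries were themselves unlike the young one, and the shares of their FPKM in the Gm10800 family were 82.5%, 96.4% and 68.5%, against 7.84%. Library 3 held most of the granulosa signal, with Foxl2 at 25.8 FPKM, Fshr at 27.2 FPKM and Inha at 263 FPKM, whereas library 2 had 0.912, 0.0827 and 0.390 FPKM of these genes. Library 1 was at 4.43 FPKM for Foxl2, 1.48 FPKM for Fshr and 0.555 FPKM for Inha, but at 1341 FPKM for Cyp11a1. Of the 16 genes of the granulosa identity list kept in the group, 5 were called higher in granulosa cells, namely Foxl2, Fshr, Fst, Inhba and Wt1. So were 2 of 10 steroid genes, 1 of 4 cumulus genes, none of 14 granulosa-side receptors and ligands and none of 6 genes of the insulin-like growth factor system, and no gene of these lists was called lower. All 7 zona and oocyte-secreted protein genes and all 8 genes of the subcortical maternal complex were lower in granulosa cells there, with medians of -7.04 and -6.82. Zp3 was at 876, 667 and 128 FPKM in those oocytes and at or under 0.404 FPKM in those granulosa cells. Of 79 ribosomal protein genes kept in that group, none was called higher in granulosa cells and 14 were called lower. Their median difference was -2.29, against 5.07 in young mice. Over all genes kept there, 1.98% were higher and 17.1% lower, so the lower share of the ribosomal genes was near that of all genes. Of 94 nuclear respiratory chain genes, none was higher and 34 were lower, with a median difference of -2.78, against 3.38 in young mice. Of the 13 mitochondrially encoded proteins, the genes of 10 were higher and none lower in that group.

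**Figure D5:**
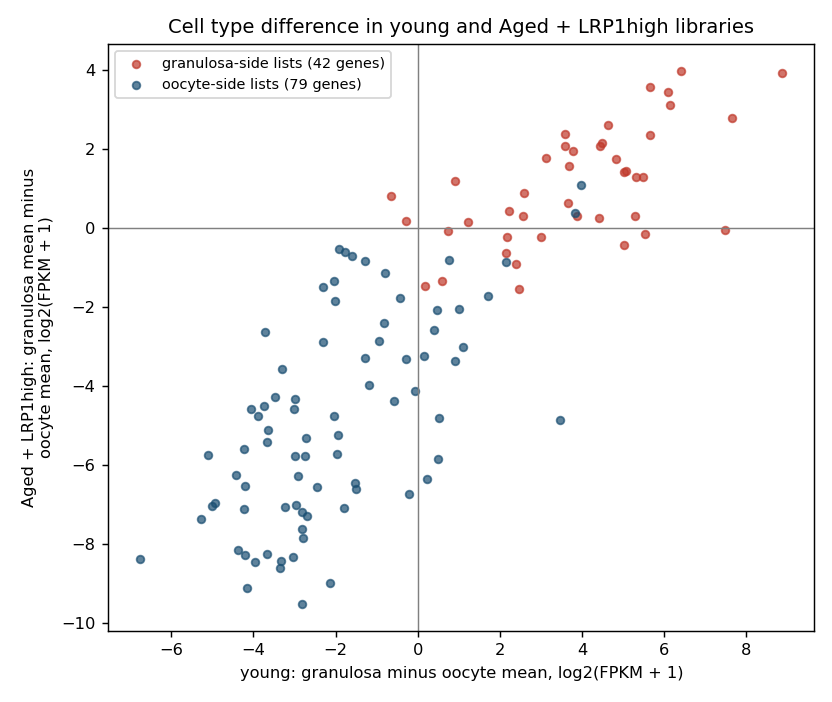
Difference between granulosa cells and oocytes on the log2(FPKM + 1) scale in young mice (horizontal axis) and in the Aged + LRP1high group (vertical axis), for 42 genes of the granulosa-side lists and 79 genes of the oocyte-side lists kept in both. Most oocyte-side genes lie below 0 on both axes, and most granulosa-side genes lie above 0 in young mice and between -2 and 4 in the Aged + LRP1high group.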

How the data were processed

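RNA of granulosa cells and oocytes was sequenced in 21 libraries on an Illumina HiSeq instrument. The study's methods describe Smart-seq2 amplification while the labels name a stranded kit, so whether reads keep their strand is unclear, and reads of overlapping genes cannot be told apart. The deposited tables, 1 per library, give for each of 55335 gene identifiers the coverage, FPKM and TPM that the authors computed with StringTie 1.3.3b from HISAT2 2.2.1 alignments, per the submitters' processing notes. These notes name mm9, but 54577 identifiers carry the version and coordinates of GENCODE M21 on GRCm38, whose coordinates are used. The tables hold no counts. Depth was derived as aligned gigabases from the coverage and FPKM of genes with 1 exon.

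FPKM values were summed over repeated identifiers of a gene and set on the log2(FPKM + 1) scale. Genes with a mean of at least 1 FPKM over the 4 libraries were kept. A gene was called where the granulosa value differed from the oocyte mean by at least 2 and lay outside the range of the oocyte libraries. No test was run, because the granulosa group has 1 library. The genes named were the markers, members of the gene lists and the 15 protein-coding genes with the largest difference in each direction among those called. The gene lists held known genes of each function or cell type, and the last 5 were respiratory chain, mitochondrial, ribosomal, vomeronasal and olfactory genes found by their symbols. The libraries, lists and comparisons were chosen with earlier results of these data known. Promoters came from a RefSeq table of GRCm38.p6.

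The alternatives were other pseudocounts, filters, fold limits and scalings (TPM, quantile normalization and equal sums of protein-coding genes), a call on means alone, and leaving out each library. The scripts (Python 3.11.15, numpy 2.4.6, pandas 2.3.3) were tested on simulated data. Some genes of the lists are not reported here.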

Additional observations from a re-analysis of the deposited data

Results flagged for a closer look

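Of the 3904 genes called higher in granulosa cells of young mice, above all 3 oocyte libraries, 293 went the other way in the Aged + LRP1high group. There they were called lower in granulosa cells, below all 3 oocyte libraries of that group. Of the 3904 genes, 2859 were kept there. Among all 13047 genes kept there, 2234 were called lower (17.1%), a larger share than the 293 of 2859. The genes named here are examples from the gene lists. The difference between the groups was not tested. In the cholesterol pathway, Sqle had a difference of 3.87 in young mice and of -2.81 in the Aged + LRP1high group, and Hsd17b7 of 6.08 and -2.34. In DNA replication, Top2a, which untangles DNA strands, had 2.66 and -3.27, and Mcm7, a subunit of the replicative helicase, 2.75 and -3.12. The histone deacetylase gene Hdac2 had 3.47 and -4.85. The Gm10800 family took 82.5%, 96.4% and 68.5% of the FPKM of the Aged + LRP1high granulosa libraries and 7.84% of the young one, and its part in these values was not tested.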

How the results depend on the processing

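With 3904 genes called higher and 328 lower in granulosa cells as reported, a pseudocount of 0.1 gave 599 lower genes and a pseudocount of 10 gave 982 higher and 55 lower. A mean of at least 10 FPKM gave 1476 higher genes. Quantile normalization gave 1658 and 607, and an equal sum of nuclear protein-coding genes without the Gm10800 family, an alternative added after seeing the data, gave 2221 and 672. Limits of 2-fold and 8-fold gave 621 lower, and 2010 higher and 149 lower genes, and a call on the means alone gave 590 lower. Leaving out 1 oocyte library gave 3105 to 5313 higher and 224 to 1107 lower genes. The cause of these moves was not tested. The genes higher in both young and Aged + LRP1high granulosa cells, 98 in all, ranged from 71 to 368 when 1 library of that group was left out, also added after seeing the data, and the 205 lower in both from 198 to 265. Counts with TPM, with no filter and with equal sums of protein-coding genes were within 1.5 times those reported. No called difference of a named gene changed sign under these alternatives. Of the values under an alternative, 88 list medians and 181 differences of named genes moved by more than the spread between the oocyte libraries, and 299 and 1783 did not. The medians that changed sign under another scaling or without 1 library included those of glycolysis, cell cycle, immune and meiotic genes, as given above. The number of libraries limits every statement on granulosa cells, and the low depth of 0.694 gigabases limits that on low genes. No paired analysis was possible because the granulosa group has 1 library and no test was run.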
